A study of Mus musculus with 1677 samples.

Results

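Kidney medulla from mice fed a Western diet either freely or in a nightly window was sampled every 2 h through 24 h, and the polyadenylated RNA was sequenced. The members were the columns of the deposited count table named for this tissue and a clock time. They number 48 libraries, from 61 of the 1677 sequencing samples in the series, which holds 1035 libraries from 22 tissues. The mice were wild-type C57BL/6J (the labels give no sex), bought at 10 weeks of age, kept for 2 weeks on normal chow under 12 h of light and 12 h of dark, and then given a Western diet (45% fat, 17% sucrose) for 7 weeks. Ad-libitum fed mice (ALF, 24 libraries) had that food at all hours. Time-restricted fed mice (TRF, 24 libraries) had it for 9 h a night, from ZT13 to ZT22, where ZT counts hours from lights on. No group on normal chow is among these libraries, so all of them share the Western diet. At each of 12 clock times there are 2 libraries a group. The labels do not say that the 2 came from separate mice, so p-values measure only the spread between these libraries.

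The medulla is the inner kidney. Its outer part holds thick ascending limbs and the straight ends of proximal tubules, and its inner part holds thin limbs and collecting ducts that concentrate urine in salty, oxygen-poor surroundings. Straight proximal tubules and thick ascending limbs burn fatty acids and ketone bodies, whereas inner cells depend more on glycolysis. When food is absent, fatty acids bind the nuclear receptor PPAR-alpha, which switches on genes of fat oxidation and ketone synthesis. Kidney cells also hold a circadian clock, in which ARNTL with CLOCK or NPAS2 drives the Per, Cry, Nr1d and Dbp genes through E-boxes, NR1D and ROR proteins act on Arntl through ROR elements, and DBP and NFIL3 act through D-boxes.

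Totals ran from 2.26 to 30.2 M counts a library (median 4.78 M, with 4.49 M in ALF and 5.06 M in TRF), and the next highest after the library at 30.2 M held 16.4 M. Levels are given below in CPM, a gene's count for each M counts (SI mega) of the scaled library total. For Xist and Ddx3y the total was not scaled. Xist, the RNA of the inactive X chromosome, was at 0.81 CPM or less in every library, and Ddx3y, on the Y chromosome, ran from 44.8 to 138 CPM, the pattern of male tissue. Against 48 cortex libraries of the same feeding groups, the medulla libraries held more RNA of several inner segment markers. Median levels were 267 against 16.2 CPM for the urea transporter Slc14a2 and 4331 against 1023 CPM for the thick ascending limb cotransporter Slc12a1. The collecting duct water channel Aqp2 was at 116 against 35.0 CPM. Medulla libraries held less of the cortical Slc5a2 (72.5 against 310 CPM) and Slc12a3 (253 against 869 CPM). Not every marker followed its list. The collecting duct marker Scnn1b was lower in medulla (34.3 against 48.2 CPM), and the proximal tubule marker Slc22a7 was higher (255 against 98.5 CPM). Summed principal cell markers were at 826 against 451 CPM, and summed intercalated cell markers at 644 against 831 CPM. Proximal tubule RNA was abundant in the medulla as well, with a summed marker level of 71918 CPM at the median against 95521 CPM in cortex. Most of that sum came from Kap, an androgen-dependent proximal tubule gene and the most abundant marker. Kap had medians of 46448 CPM in medulla and 55349 CPM in cortex. The profiles of 4 medulla libraries correlated more closely with the cortex libraries than with the other medulla libraries: ZT2 TRF replicate 1, ZT10 ALF replicate 2, ZT10 TRF replicate 2 and ZT16 TRF replicate 2. The counts over all genes and those of the main gene lists are also given without them, and where a mean at ZT16 in TRF is printed, both library values follow in the text.

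**Figure D1:**
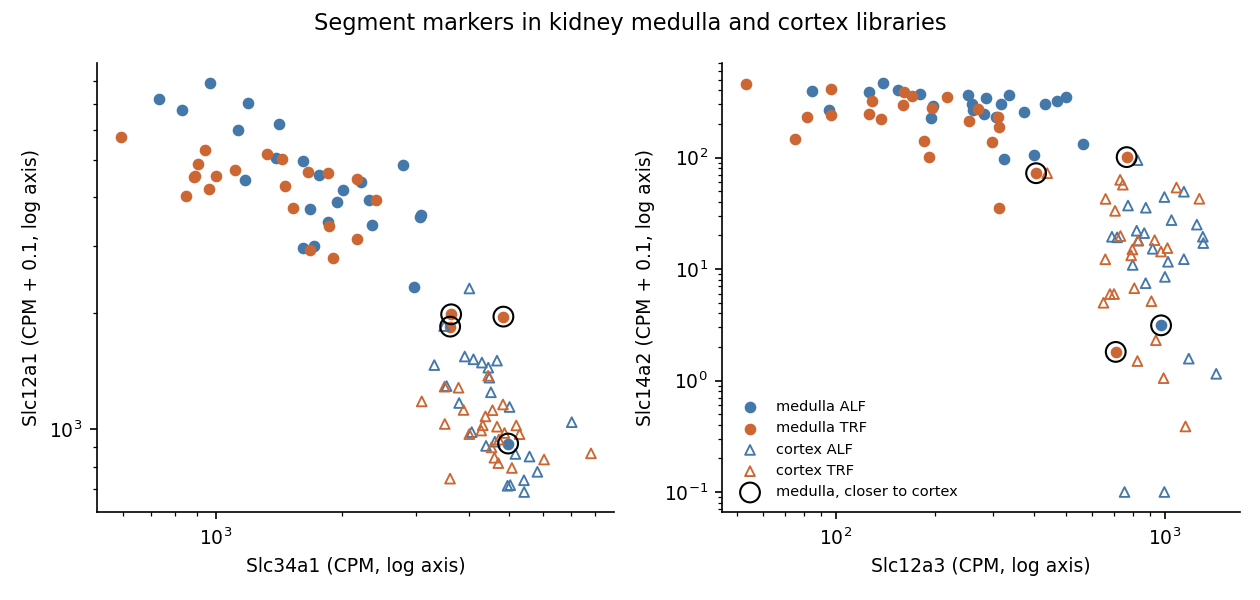
Levels of segment markers in each kidney library, medulla filled and cortex open, ALF in blue and TRF in orange, on log axes in CPM. Most medulla libraries stand apart from cortex, with Slc14a2 at a median of 267 against 16.2 CPM, and the 4 ringed medulla libraries lie closer to cortex in overall profile.

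Few segment markers passed the test between feeding groups, and their summed levels spread widely between libraries. The summed level of 19 proximal tubule markers, most of it from Kap, ran from 53106 to 104444 CPM in ALF (median 71121). In TRF it ran from 51228 to 113054 CPM (median 72520), and 1 of 19 rose. Thick ascending limb markers had medians of 16090 CPM in ALF and 17530 CPM in TRF, and 0 of 9 passed the test. Principal cell markers had medians of 1023 and 755 CPM, with 1 of 9, Aqp4, lower in TRF. Distal convoluted tubule markers had medians of 452 and 284 CPM with 0 of 4 called. Macrophage markers had medians of 272 and 305 CPM, and 2 of 12 rose, Lyz2 by 0.82 and Itgam by 0.80 on the log2 scale. MHC class II genes had medians of 484 and 479 CPM with 1 of 7 lower, H2-DMb1 (-0.35). By edgeR 0 markers were called among 5 of the thin limb, 11 of intercalated cells, 8 of endothelium, 7 of fibroblasts, 4 of smooth muscle, 6 of podocytes, 7 of urothelium and 6 erythroid genes tested. Over the 11 marker lists with no call, 14 of 71 genes had an unadjusted p under 0.05, against 1660 of 12476 over all genes tested. Adipocyte markers, which could come from perirenal fat, summed to medians of 197 CPM in ALF and 210 CPM in TRF, and the fat-specific Adipoq was at 0 in 37 of 48 libraries. Lymphocyte markers summed to at most 15.1 CPM, neutrophil markers to at most 36.1 CPM and adrenal markers to at most 4.81 CPM in any library. The part these cell types play in the gene results was not tested, and in bulk tissue fewer cells of a type and less RNA per cell cannot be told apart.

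Over all clock times, TRF medulla carried more RNA for genes of fat oxidation, and the genes that were lower were fewer and of mixed function. Of 12476 genes tested with edgeR's quasi-likelihood test, with clock time as a factor and a Benjamini-Hochberg adjusted p under 0.05, 240 were higher in TRF (1.92%) and 126 lower (1.01%). Most differences were small. The median size was 0.34 on the log2 scale, 14 genes rose and 3 fell by at least 1 log2 unit, and no gene had groups that did not overlap. Each of the 366 differed in the same direction in either set of replicates, and 32 of the 240 were higher in TRF at all 12 clock times. The genes were called on these same libraries, so these counts are no separate support. Without the 4 cortex-like libraries 576 genes were called. With the mean log2 CPM of the proximal tubule markers as a covariate 960 were. With replicate 2 libraries alone 0 genes were called, and with replicate 1 libraries alone 58 were.

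The mitochondrial fatty acid oxidation genes rose together: 10 of 18 tested rose and 0 fell, with a median log2 difference of 0.18 against -0.0045 over all genes tested. Acadm encodes medium-chain acyl-CoA dehydrogenase, which takes the first step of the cycle on medium-chain fatty acids (chr3:153922353-153944643, GRCm38.p6). Acadm had 798, 1221 and 1819 CPM as the lowest, median and highest ALF library and 1363, 2047 and 2689 CPM in TRF. All 24 TRF libraries lay above the ALF median and 19 lay above the highest ALF library. The log2 difference for Acadm was 0.65 ± 0.07 (SE, adjusted p = 3e-07), with TRF higher at 12 of 12 times. Slc25a20, the carrier that brings acylcarnitines into the mitochondrion, rose by 0.37 ± 0.06 (adjusted p = 5.3e-05). Acadl and Acadvl, the dehydrogenases for longer chains, rose by 0.27 and 0.18, and Cpt2, which regenerates acyl-CoA inside the mitochondrion, rose by 0.31. Hadha and Hadhb, the subunits of the trifunctional protein, rose by 0.20 and 0.17. Eci1, Eci2 and Decr1, which handle unsaturated fatty acids, rose by 0.23, 0.33 and 0.32. Cpt1a, the entry enzyme that malonyl-CoA inhibits, did not pass the test (0.06, adjusted p = 0.73). Without the 4 cortex-like libraries 10 of the 18 rose.

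In the peroxisome, where very long chains are shortened, 2 of 11 tested genes rose and 0 fell (median 0.18). Ehhadh, the bifunctional enzyme of this path (chr16:21761285-21787834), ran over 670, 965 and 1640 CPM in ALF and 1265, 1690 and 2468 CPM in TRF. Every TRF library exceeded the ALF median for Ehhadh and 14 exceeded the highest ALF library. It rose by 0.71 ± 0.10 (adjusted p = 1.5e-05). Pex11a, which helps peroxisomes divide, rose by 0.26, a call lost with the replicate number as a block (adjusted p = 0.052). With the proximal tubule covariate 6 of the 11 rose.

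Among other known PPAR-alpha targets, 8 of 14 tested rose and 1 fell, with a median of 0.42, and the counts were 8 and 1 without the cortex-like libraries as well. Cyp4a14 encodes an omega-hydroxylase of fatty acids (chr4:115486200-115496158) and had the largest rise among the named genes. It ran over 17.1, 105 and 631 CPM in ALF and 132, 370 and 1408 CPM in TRF. No TRF library was below the ALF median, and 6 were above the highest ALF library, a ZT8 sample. The log2 difference for Cyp4a14 was 1.95 ± 0.34 (adjusted p = 0.00039), with TRF higher at 11 of 12 times. Its neighbour Cyp4a10 (chr4:115518287-115533649) rose by 0.77 ± 0.12 (adjusted p = 0.00013). The 2 genes are close relatives and reads could be split between them. Vnn1, a pantetheinase, rose by 0.47, and the thioesterases Acot1 and Acot2 rose by 0.43 and 0.41. Fabp3, a fatty acid binding protein, fell by 0.36 (adjusted p = 0.015), with medians of 25.5 CPM in ALF and 19.6 CPM in TRF.

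Of the 7 genes of ketone body synthesis and use tested, 2 rose and 0 fell, with a median of 0.053. Bdh1, which makes and uses beta-hydroxybutyrate, rose by 0.17.

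Among the other PPAR-alpha targets counted above, ANGPTL4 inhibits lipoprotein lipase and PDK4 shuts pyruvate out of the mitochondrion. Angptl4 (chr17:33774900-33781575) was at 22.6, 45.4 and 99.0 CPM in ALF and at 56.3, 86.6 and 208 CPM in TRF. All 24 TRF libraries exceeded the ALF median for Angptl4, which rose by 1.03 ± 0.16 (adjusted p = 0.0001). Pdk4 (chr6:5483351-5496278) was at 18.6, 52.3 and 152 CPM in ALF and at 46.3, 101 and 431 CPM in TRF. The overlap between groups for Pdk4 was wide, and 8 TRF libraries lay above the highest ALF library. Pdk4 rose by 1.09 ± 0.30 (adjusted p = 0.033). Ucp2, a mitochondrial inner-membrane carrier (chr7:100493337-100499629), was at 24.2, 63.2 and 158 CPM in ALF and at 74.4, 148 and 226 CPM in TRF. Each TRF library exceeded the ALF median for Ucp2, and it was higher in TRF at 12 of 12 times. It rose by 1.07 ± 0.12 (adjusted p = 7.7e-07). Of 32 respiratory chain subunits 0 were called by edgeR or DESeq2 (1 at an unadjusted p under 0.05), with a median of 0.031.

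**Figure D2:**
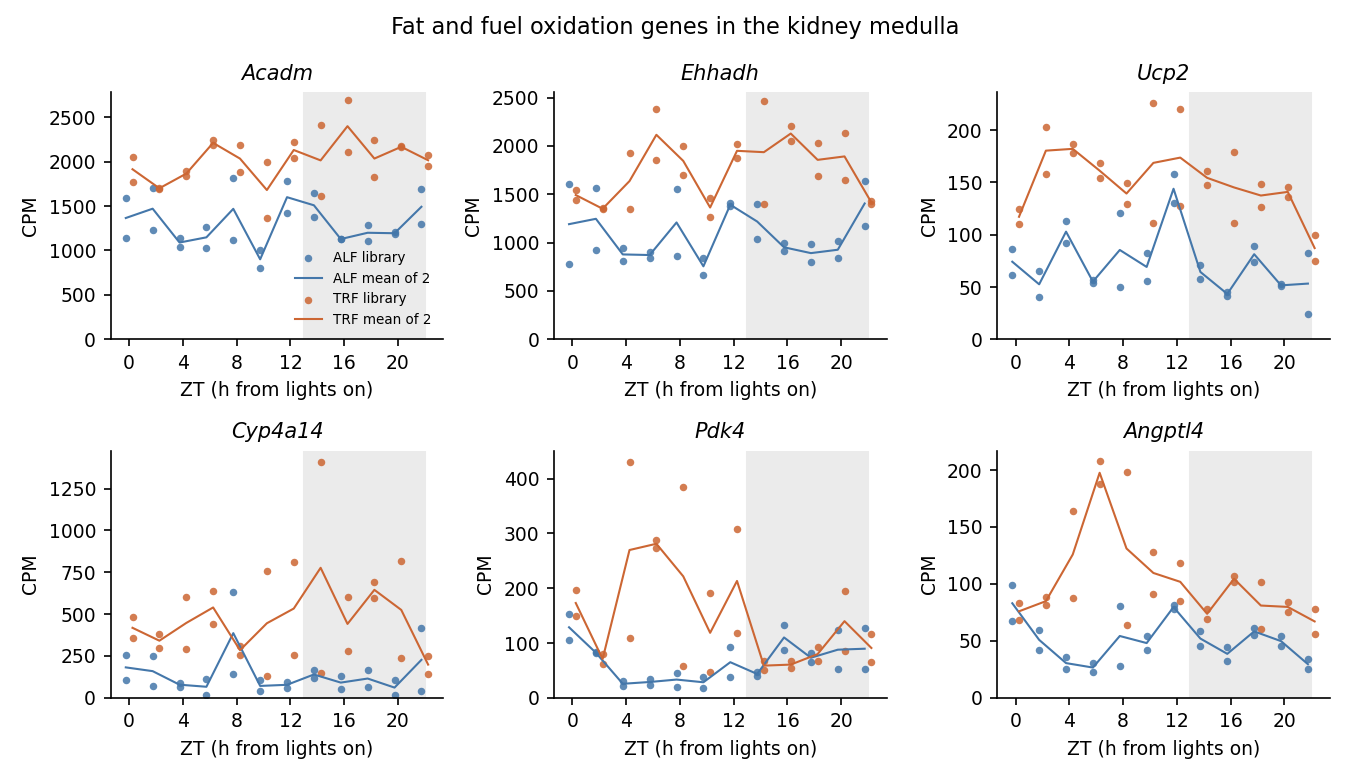
CPM of Acadm, Ehhadh, Ucp2, Cyp4a14, Pdk4 and Angptl4 by clock time, each point a library and each line the mean of 2, ALF in blue and TRF in orange, with the hours of food access in TRF shaded. Acadm, Ehhadh and Ucp2 are higher in TRF at all 12 times, and Pdk4 at ZT4 averages 25.6 CPM in ALF and 270 CPM in TRF.

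Other genes with large rises were of mixed function. Gm6300 (chr3:14363117-14374239), a gene model without a settled function, had medians of 62.2 CPM in ALF and 265 CPM in TRF and rose by 1.60 ± 0.22 (adjusted p = 1.5e-05). Gm15441 (chr3:96555768-96566801) rose by 1.80 ± 0.26 (adjusted p = 2.9e-05), from a median of 5.84 to one of 21.6 CPM. It is an antisense transcript of the Txnip locus (chr3:96557957-96561857). Txnip was at 0.13 ± 0.13 and did not pass. Since the strand setting of the counting is not given in the sources used here, the reads of Gm15441 cannot be told apart from those of Txnip. Slc22a26, a member of the organic anion transporter family, rose by 1.12 ± 0.16, with medians of 37.2 and 88.0 CPM. Akr1c18, a hydroxysteroid dehydrogenase that inactivates progesterone, rose by 1.08 ± 0.19, with medians of 36.6 and 81.6 CPM. Ccl28, a chemokine of mucosal epithelia, rose by 1.20 ± 0.23, with medians of 27.0 and 71.8 CPM. Kcnma1, the pore of the BK potassium channel that secretes potassium at high flow, rose by 0.53 ± 0.08 (adjusted p = 0.00013) and was the only call among 22 sodium and potassium transport genes tested.

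The sterol path did not move as a whole: 2 of 20 cholesterol synthesis genes rose, 0 fell, and the median was 0.042. Idi1, the isomerase of isopentenyl diphosphate (chr13:8885606-8892396), was at 0.875, 1.88 and 4.70 CPM in ALF and at 1.67, 3.57 and 5.67 CPM in TRF. For Idi1 23 of 24 TRF libraries exceeded the ALF median, and the rise was 0.72 ± 0.12 (adjusted p = 0.00015). Sqle, another enzyme of the path, was at 0.07 and did not pass. In fatty acid synthesis 1 of 19 rose, the lipid droplet protein Pnpla3 (0.73 ± 0.13), and 1 fell, Acss2, which makes acetyl-CoA from acetate (-0.17).

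The 2 rises among 11 tested kidney injury markers were Havcr1 and Lcn2, at low levels. Havcr1, the tubular receptor KIM-1, was at 3.22, 6.45 and 17.4 CPM in ALF and at 3.65, 11.9 and 57.7 CPM in TRF. The highest ALF library was exceeded by 8 TRF libraries for Havcr1, which rose by 1.02 ± 0.22 (adjusted p = 0.0049). Lcn2, the siderophore-binding protein NGAL that neutrophils also carry, had medians of 7.48 and 12.7 CPM and rose by 0.93 ± 0.23 (adjusted p = 0.015). The summed neutrophil markers stayed at or under 36.1 CPM. Among 24 interferon-stimulated genes Oas2 and Oas1a rose by 0.49 and 0.43, and among 22 matrix genes Col5a2 and Mgp rose by 0.50 and 0.37.

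The genes that fell were of mixed function. Prlr, the prolactin receptor (chr15:10177238-10349190), was at 7.21, 70.0 and 185 CPM in ALF and at 3.08, 19.6 and 83.5 CPM in TRF. For Prlr 23 of 24 TRF libraries lay below the ALF median, though the ranges overlapped. It fell by 1.54 ± 0.34 on the log2 scale (adjusted p = 0.0057). The fall was -2.32 with replicate 1 libraries alone and -0.77 with replicate 2 libraries alone. Slc7a12, an amino acid transporter (chr3:14480697-14505819), was at 14.4, 98.0 and 266 CPM in ALF and at 9.32, 37.4 and 96.2 CPM in TRF. All 24 TRF libraries lay below the ALF median for Slc7a12, which fell by 1.44 ± 0.30 (adjusted p = 0.0033), or -0.73 with replicate 2 libraries alone. Slc7a12 lies on the same stretch of chromosome 3 as Gm6300, which rose.

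Hao2, a peroxisomal 2-hydroxyacid oxidase of the tubule (chr3:98874519-98895376), was at 255, 536 and 888 CPM in ALF and at 128, 308 and 519 CPM in TRF. Every TRF library of Hao2 lay below the ALF median, and 8 lay below the lowest ALF library. It fell by 0.85 ± 0.13 (adjusted p = 0.00011). Azgp1, a secreted glycoprotein linked to fat mobilisation (chr5:137981521-137990233), was at 125, 182 and 350 CPM in ALF and at 58.8, 111 and 231 CPM in TRF. The lowest ALF library of Azgp1 was above 17 of 24 TRF libraries, and TRF was lower at all 12 times. It fell by 0.73 ± 0.12 (adjusted p = 0.00016). Gc, the vitamin D binding protein, fell by 0.91 ± 0.18 (adjusted p = 0.0016). Of the remaining large falls, D630023F18Rik was at -0.94, Ugt2b34 at -0.79, Kcne4, an auxiliary potassium channel subunit, at -0.72, Fcamr, a receptor for immunoglobulins, at -0.71, Xpnpep2, an aminopeptidase, at -0.70 and Cyp2c44 at -0.65.

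Aqp4, a basolateral water channel of the collecting duct, was the single water or urea transport gene of 12 tested that passed. Aqp4 was at 41.9, 444 and 744 CPM in ALF and at 71.9, 260 and 531 CPM in TRF. The ranges overlapped, and 23 of 24 TRF libraries were below the ALF median. It fell by 0.79 ± 0.21 (adjusted p = 0.033), and the fall with replicate 2 libraries alone was -0.52. Without the 4 cortex-like libraries the Aqp4 difference was -0.69 (adjusted p = 0.012). Aqp4 is itself 1 of the 9 summed markers of principal cells. Their sum was lower in TRF at the median (755 against 1023 CPM), but it includes Aqp4 and is not separate from its fall. The part of principal cells in the fall was not tested. Among 12 genes of the osmotic stress response, Slc6a6, the taurine transporter, fell by 0.26 ± 0.06 (adjusted p = 0.011) and 0 rose.

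Carboxylesterases, which cleave drug and lipid esters, moved in opposite directions within a cluster of genes on chromosome 8. Ces2b (chr8:104828494-104840093) rose by 1.36 ± 0.22 (adjusted p = 0.00013), from a median of 5.97 to one of 20.8 CPM, and Ces2e (chr8:104926260-104934672) rose by 0.34 ± 0.08. Ces2c rose by 0.41. Ces2g (chr8:104961596-104969537), at the far end, fell by 0.62 ± 0.16 (adjusted p = 0.022). Ces1g (chr8:93302369-93337209), in the Ces1 cluster, ran over 0.942, 6.32 and 49.8 CPM in ALF and 0.225, 1.23 and 7.19 CPM in TRF. For Ces1g 9 TRF libraries lay below the lowest ALF library, and the highest ALF value is 1 library at ZT10. It fell by 1.80 ± 0.36 (adjusted p = 0.002), or -0.90 with replicate 1 libraries alone. Of 8 carboxylesterases tested 3 rose and 2 fell, and 3 fell without the cortex-like libraries. Carboxylesterases resemble each other, so reads could be split between copies.

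**Figure D3:**
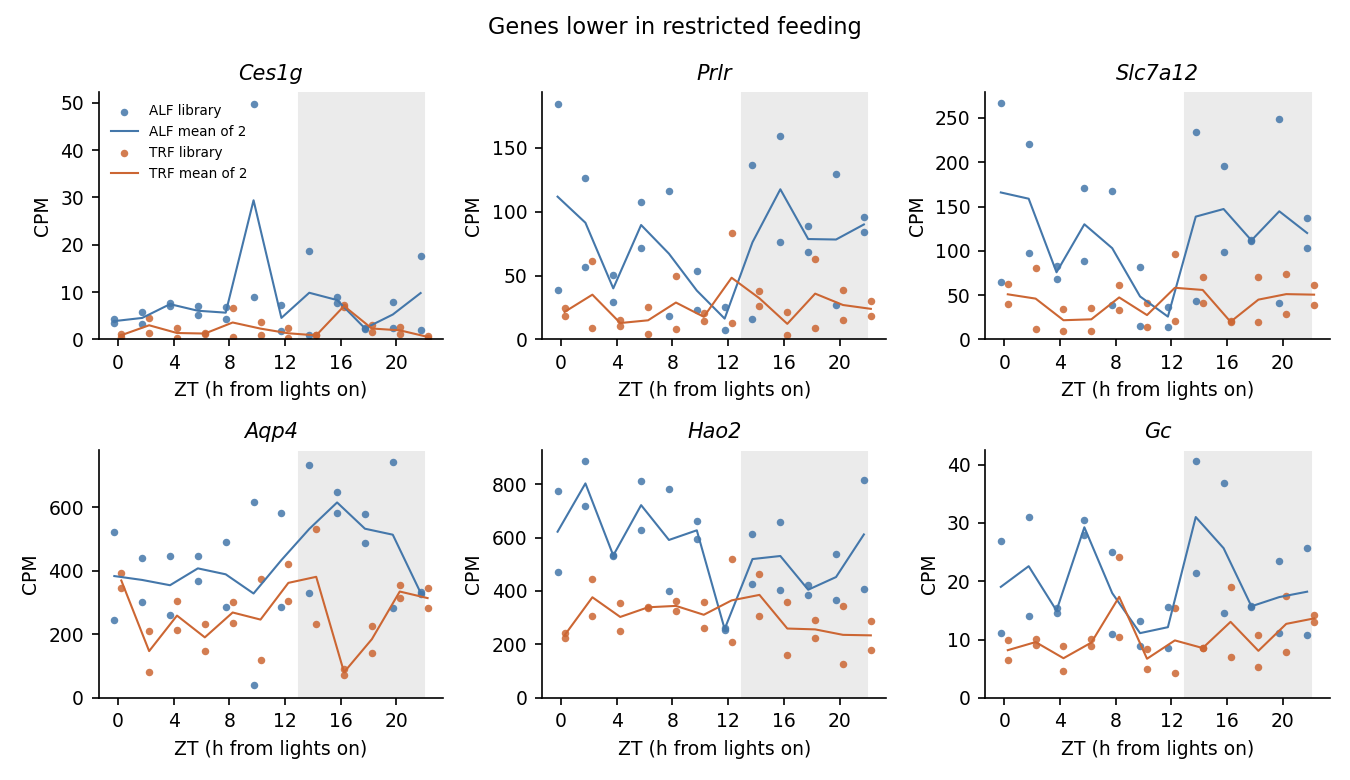
CPM of Ces1g, Prlr, Slc7a12, Aqp4, Hao2 and Gc by clock time, each point a library and each line the mean of 2, ALF in blue and TRF in orange, with the hours of food access in TRF shaded. Gc and Ces1g are lower in TRF at all 12 times, and the spread of Prlr and Slc7a12 between the 2 ALF libraries of a time is wide.

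Other lists drawn up for this tissue held few calls or none at the mean level. Of 17 glycolysis genes Pgam1 rose (0.18), and of 15 corticosteroid response genes the metallothionein Mt2 rose (0.63). By edgeR and by DESeq2 there were 0 calls among 8 gluconeogenesis genes, 17 fasting and FOXO targets, 16 genes of endothelin, prostaglandin and nitric oxide, 7 of renin and angiotensin, 10 of NAD salvage, 10 of proliferation, 2 cold-inducible RNA-binding protein genes and 11 immediate early genes tested. The gene lists with no call by edgeR held 132 genes in all, with the clock and respiratory chain genes. Of these 13 had an unadjusted p under 0.05, against 1660 of 12476 over all genes tested.

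The question of when in the day these differences arise was met by fitting the feeding term separately for ZT0 to ZT12, when TRF mice had no food (14 libraries a group), and for ZT14 to ZT22, when they had it (10 libraries a group). Without food 45 genes were higher in TRF (0.361%) and 14 lower (0.112%). With food 94 were higher (0.753%) and 30 lower (0.24%), and 24 genes were called in both windows. Acadm rose in both, by 0.60 ± 0.09 without food and 0.71 ± 0.11 with food, as did Ehhadh (0.65 and 0.79) and Cyp4a14 (1.85 and 2.08). Pdk4 rose without food by 1.90 ± 0.34 (adjusted p = 0.0063) and was at 0.08 ± 0.38 with food. At ZT4 Pdk4 averaged 25.6 CPM in ALF and 270 CPM in TRF, and at ZT16 110 and 60.7 CPM, the TRF libraries being at 55.0 and, in the cortex-like one, 66.4 CPM. The difference between the Pdk4 windows did not pass (adjusted p = 0.45). Angptl4 rose without food by 1.16 ± 0.21, with its widest gap at ZT6, at 26.6 CPM in ALF and 198 CPM in TRF. Acot1 and Acot2 rose without food by 0.53 and 0.56.

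With food, part of the cytosolic and mitochondrial chaperones rose, and 0 of 17 ER chaperones were called. By edgeR 11 of these 17 had an unadjusted p under 0.05, against 1716 of 12476 genes tested. The median over the ER chaperones was 0.23. Of 20 cytosolic heat shock proteins 5 rose and 0 fell, with a median of 0.48 against -0.0043 over all genes, while without food 0 were called by edgeR (2 at an unadjusted p under 0.05) and the median was -0.0026. Without ZT0 and ZT22, the times at the edges of food access, 9 of the 20 rose with food, and without the 4 cortex-like libraries 5 did. Hsp90aa1, the inducible HSP90 (chr12:110691036-110696395), averaged 129 CPM in ALF and 303 CPM in TRF at ZT16, where the TRF libraries held 341 and 266 CPM, the latter cortex-like. It rose with food by 0.90 ± 0.15 (adjusted p = 0.00076). The constitutive Hsp90ab1 rose with food by 0.60 ± 0.11, and the HSP90 co-chaperones Stip1 and Ahsa1 rose by 0.51 ± 0.10 and 0.42 ± 0.11. Hspa4l, an exchange factor of HSP70 that osmotic stress also raises, rose with food by 0.74 ± 0.16. No heat shock gene passed the test of the difference between windows; the values were 0.60 ± 0.19 for Hsp90aa1 (adjusted p = 0.55) and 0.44 ± 0.14 for Stip1 (adjusted p = 0.53).

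The mitochondrial chaperonin pair moved with them. Hspd1 and Hspe1 encode HSP60 and HSP10, which fold imported proteins, and are transcribed in opposite directions from a shared promoter. Hspd1 (chr1:55077833-55088243) was at 244, 368 and 568 CPM in ALF and at 334, 456 and 678 CPM in TRF. For Hspd1 22 of 24 TRF libraries lay above the ALF median, and it rose by 0.33 ± 0.07 (adjusted p = 0.0049), by 0.52 ± 0.11 with food. At ZT16 in TRF it was at 678 and, in the cortex-like library, 673 CPM. Hspe1 (chr1:55088148-55091317) rose by 0.34 ± 0.09 (adjusted p = 0.028), by 0.56 ± 0.13 with food. Heat shock factor binds inverted repeats of the letters GAA, searched here on both strands as GAA, TTC and GAA with NN between them, a pattern that 0.603% of all RefSeq promoters hold. The shared promoter of the pair holds it, with the overlapping matches in capitals below (RefSeq, GRCm38.p6), as do the promoters of Hsph1 and Chordc1. A match is a description and not a site. The PPAR element, searched on both strands as repeats of AGGTCA with N between them, is in 0.0396% of all promoters and in none of the 16 mitochondrial, 8 peroxisomal and 7 other PPAR-alpha target genes with a promoter, which says only that these letters are not in these windows.
Hspd1 (chr1:55088009-55088126, minus strand): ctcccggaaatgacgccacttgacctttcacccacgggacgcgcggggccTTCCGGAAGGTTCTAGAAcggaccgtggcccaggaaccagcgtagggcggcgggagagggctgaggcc

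Genes lower in TRF with food included the clock gene Npas2 (-0.84 ± 0.20, adjusted p = 0.022), Lrrc66 (-0.97) and Bzrap1 (-0.95). Bhlhe40, a repressor of the clock, was higher with food (0.53 ± 0.13, adjusted p = 0.03). Without food D630023F18Rik and Azgp1 (-0.84 ± 0.16) fell, as did Ces1g, whose call in this window was lost with the replicate number as a block, with DESeq2 size factors and with a term for repeat runs.

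The test of the difference between windows called 3 of 12476 genes (0.024%), against 909 at an unadjusted p under 0.05. For Npas2, the partner of ARNTL, the difference was -1.30 ± 0.25, for Ypel2 -0.73 ± 0.14 and for Acsl1, which activates fatty acids, -0.61 ± 0.12, each at an adjusted p of 0.046. Npas2 averaged 20.6 CPM in ALF and 33.9 CPM in TRF at ZT2, and 13.1 and 4.73 CPM at ZT20. Of the 2 TRF libraries at ZT2, replicate 1 is among the 4 cortex-like libraries. Acsl1 averaged 246 CPM in ALF and 378 CPM in TRF at ZT6, and 330 and 200 CPM at ZT16, the TRF libraries being at 193 and, in the cortex-like one, 206 CPM. Ypel2 averaged 28.1 and 41.7 CPM at ZT4 and 69.4 and 44.5 CPM at ZT22. In all 3 the sign of the feeding difference turned between windows. The calls are near the threshold: 0 remained with DESeq2 size factors, with the replicate number as a block, without the filter on low counts, with a term for repeat runs, or without the 4 cortex-like libraries. The next genes by p, Rcan2 (-0.54) and the deadenylase Noct (0.62), had an adjusted p of 0.29.

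**Figure D4:**
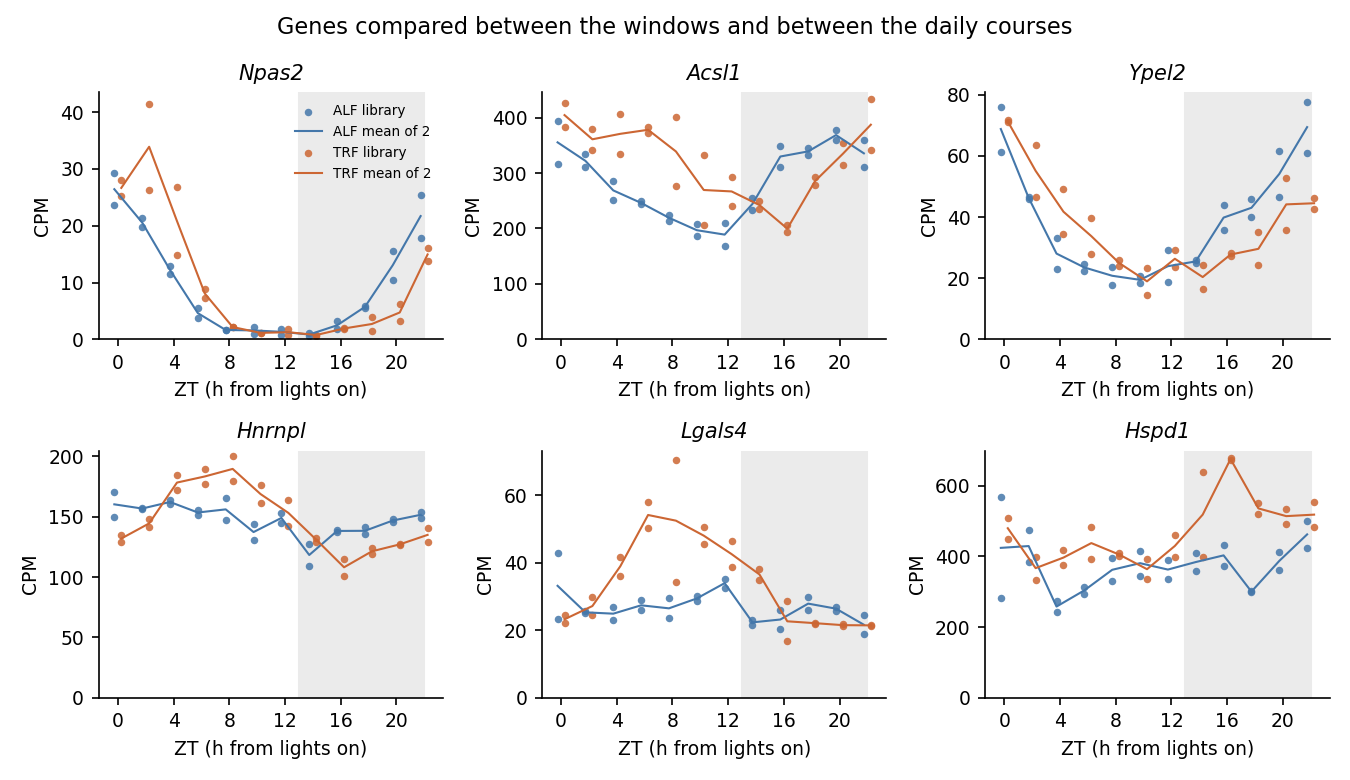
CPM by clock time of 5 genes that passed the window or the rhythm difference and of Hspd1, which passed neither, each point a library and each line the mean of 2, ALF in blue and TRF in orange, with the hours of food access in TRF shaded. The 5 are Npas2, Acsl1, Ypel2, Hnrnpl and Lgals4. Acsl1 is higher in TRF by day and lower at ZT16, and Hspd1 averages 676 CPM in TRF at ZT16 against 403 CPM in ALF.

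Rhythms were described by fitting a cosine of 24 h in each group, whose amplitude is the log2 distance from the mean to the peak. The test called 4248 genes in ALF (34%) and 6021 in TRF (48.3%). Of these 3143 passed in both, which is 74.0% of the ALF and 52.2% of the TRF genes. A further 2878 passed in TRF and not in ALF and 1105 in ALF and not in TRF. Passing in 1 group alone does not show a difference, and the test of the difference of rhythms called 5 genes (0.0401%), against 824 at an unadjusted p under 0.05. Amplitudes were mostly small, and 16 ALF and 36 TRF genes reached 1 log2 unit. In ALF 35.5% of the peaks fell from ZT4 to ZT8 and 29.6% from ZT16 to ZT20. In TRF the peaks were more spread, with 21.3% from ZT0 to ZT4, 21.1% from ZT4 to ZT8 and 19% from ZT16 to ZT20. Among the 3143 shared genes the peak was later in TRF in 38.1%, with a median shift of -0.40 h.

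The clock genes had mostly later peaks: 17 of 19 peaked later in TRF, with a median shift of 1.07 h and a range from -0.79 to 4.28 h. All 19 passed the rhythm test in both groups, and in 12 the later shift exceeded 2 SE. The count of later peaks was 17 of 19 with DESeq2 size factors as well, 17 of 18 without the cortex-like libraries, and 16 of 18 with the libraries of either replicate number alone. In mean level 0 of 19 clock genes were called by edgeR, with 4 at an unadjusted p under 0.05, and 1 was called by DESeq2's Wald test and by edgeR with DESeq2 size factors, the GC offset, the proximal tubule covariate or without the cortex-like libraries. The single test of a rhythm difference that passed among them was that of Npas2. In that test 13 of the 19 had an unadjusted p under 0.05, against 824 of 12476 over all genes tested.

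The activators peaked around the end of the night. Arntl, the core activator (chr7:113178471-113314126), peaked at ZT22.9 ± 0.24 in ALF and ZT23.8 ± 0.21 in TRF, with amplitudes of 2.13 and 2.34. Npas2 (chr1:39193702-39363240) peaked at ZT23.9 in ALF and ZT1.2 in TRF, a shift of 1.32 ± 0.30 h (adjusted p = 0.0051 for the rhythm difference). Clock peaked at ZT21.0 and ZT20.8. The repressor Nfil3 peaked at ZT21.3 and ZT22.2, Cry1 at ZT18.3 and ZT19.2, and Rora, which acts on ROR elements, at ZT20.0 and ZT19.2.

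The genes that E-boxes and D-boxes control peaked from the middle of the day into the night. Nr1d1, the repressor REV-ERB-alpha, peaked at ZT7.3 in ALF and ZT8.2 in TRF. Dbp had the largest amplitude in both groups, 2.75 and 2.62, and peaked at ZT10.1 and ZT11.2 (shift 1.07 ± 0.24 h, adjusted p = 0.053 for the rhythm difference). At ZT6 Dbp averaged 50.2 CPM in ALF and 19.3 CPM in TRF. Tef peaked at ZT10.7 and ZT12.5, Nr1d2 at ZT10.8 and ZT11.5, Ciart at ZT10.9 and ZT12.1, and Per3 at ZT11.5 and ZT12.8. Per1 peaked at ZT12.5 and ZT13.7, Cry2 at ZT12.3 and ZT13.9, Bhlhe41 at ZT12.3 and ZT12.7, and Hlf at ZT12.9 and ZT15.3. Per2, a core repressor, peaked at ZT14.6 and ZT16.3, and at ZT16 it averaged 68.5 CPM in ALF and 138 CPM in TRF, with 133 and, in the cortex-like library, 143 CPM. Bhlhe40 had the largest shift, from ZT13.2 to ZT17.5 (4.28 ± 1.0 h), though its rhythm difference did not pass (adjusted p = 0.13).

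**Figure D5:**
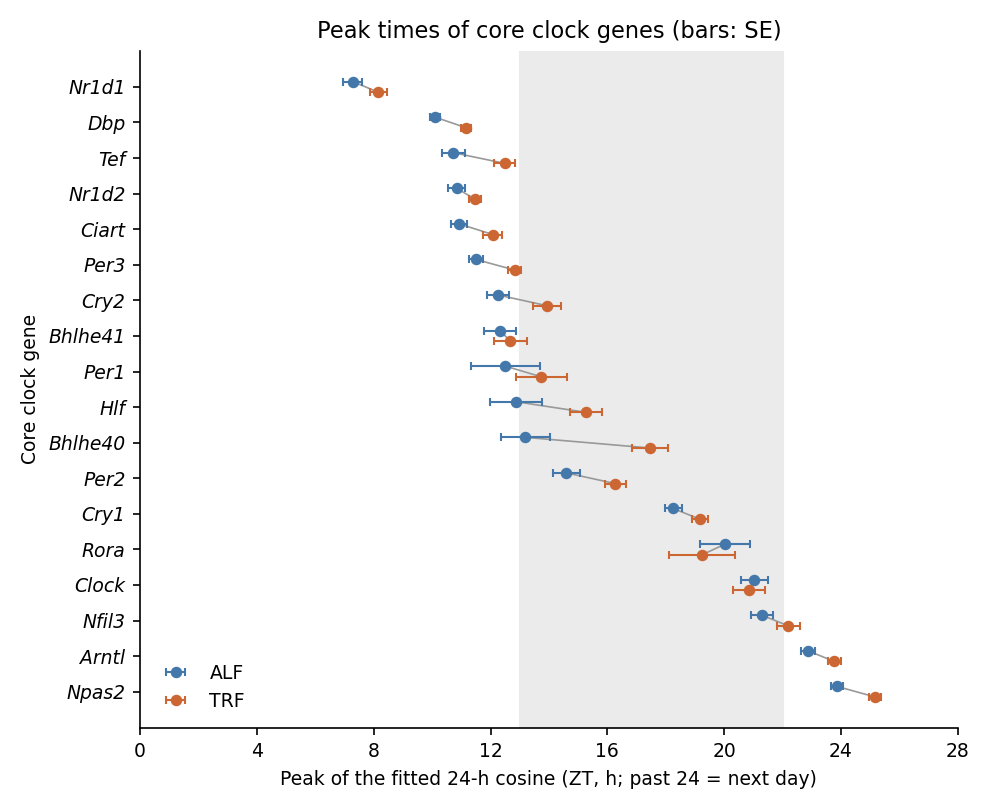
Peak time of the fitted 24-h cosine for 18 of the core clock genes, with bars for the SE, ALF in blue and TRF in orange, in hours from lights on. The TRF point lies to the right of the ALF point for 16 genes, and to the left for Clock and Rora.

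The promoter windows of clock genes are shown because they hold the motifs that the clock proteins bind. Of 19 clock genes 16 have a RefSeq promoter (250 bases before to 50 after a listed start, of which a gene can have several). The E-box CACGTG, searched on both strands, is in 7.15% of all RefSeq promoters, in those of 11.8% of the tested genes that have one, and in 5 of the 16 (31.2%): Per1, Cry1, Tef, Bhlhe41 and Ciart. The D-box TTATGTAA is in 0.938% of all promoters, in those of 0.692% of the tested genes, and in 1 of the 16, Per3. The ROR element TAGGTCA is in 2.61% of all promoters and in those of 2.41% of the tested genes. Of the 16 it is in 2, Arntl and Nfil3, both with peaks late in the night. The Arntl match lies after the start that its window is built on, and the others shown lie before theirs. The windows of Arntl and Nfil3 lie inside the spans of these genes (chr7:113178471-113314126 and chr13:52967209-52982878). The motifs are in capitals, on whichever strand they match, in these stretches of GRCm38.p6 from RefSeq.
Arntl (chr7:113207529-113207558, plus strand): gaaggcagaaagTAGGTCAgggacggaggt
Nfil3 (chr13:52981040-52981101, minus strand): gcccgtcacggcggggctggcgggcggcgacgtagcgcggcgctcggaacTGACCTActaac
Ciart (chr3:95882229-95882394, minus strand): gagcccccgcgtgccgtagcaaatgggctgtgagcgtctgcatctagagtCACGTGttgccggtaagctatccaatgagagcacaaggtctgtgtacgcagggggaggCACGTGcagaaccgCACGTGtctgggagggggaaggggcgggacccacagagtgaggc
Tef (chr15:81802496-81802601, plus strand): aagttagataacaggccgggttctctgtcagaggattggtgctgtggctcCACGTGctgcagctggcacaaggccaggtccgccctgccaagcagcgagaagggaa
Per3 (chr4:151044766-151044915, minus strand): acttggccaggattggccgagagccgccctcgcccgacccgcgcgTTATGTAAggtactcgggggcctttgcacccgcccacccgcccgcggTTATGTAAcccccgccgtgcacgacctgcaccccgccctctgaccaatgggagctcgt

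The other genes with a rhythm difference were Acsl1, Lgals4, Lgals6 and Hnrnpl. Acsl1 (chr8:46471037-46536051) peaked at ZT21.6 in ALF and ZT2.0 in TRF, a shift of 4.40 ± 0.70 h at like amplitudes of 0.44 and 0.39 (adjusted p = 0.0037). Lgals4, a galectin of epithelia (chr7:28833122-28841710), had an amplitude of 0.08 in ALF and 0.69 in TRF, with a TRF peak at ZT8.4 (adjusted p = 0.0037). At ZT6 Lgals4 averaged 27.4 CPM in ALF and 54.1 CPM in TRF, and at ZT16 23.2 and 22.6 CPM, the TRF libraries being at 16.7 and, in the cortex-like one, 28.6 CPM. Lgals6 had amplitudes of 0.10 and 0.70 (adjusted p = 0.0039), but it is a near-identical copy of Lgals4 and reads could be split between them. Hnrnpl, a splicing regulator that lies beside Lgals4 (chr7:28808546-28822268), had amplitudes of 0.14 and 0.33 (adjusted p = 0.0037). Hnrnpl averaged 156 CPM in ALF and 190 CPM in TRF at ZT8, and 138 and 108 CPM at ZT16, the TRF libraries being at 101 and, in the cortex-like one, 115 CPM. Just outside the threshold lay Got1, an aspartate aminotransferase (adjusted p = 0.053), and Pdk4 (adjusted p = 0.059), whose peak was at ZT20.1 in ALF and ZT5.2 in TRF.

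The chaperones peaked mostly at night. Of 17 ER chaperones 16 were rhythmic in each group, and 4 rose in mean level: Hsp90b1 by 0.24, Pdia4 by 0.17, Sdf2l1 by 0.40 and Pdia6 by 0.15. With the proximal tubule covariate 10 of them rose. Hspa5, the ER chaperone BiP, peaked at ZT18.5 in ALF and ZT19.0 in TRF with amplitudes of 0.80 and 0.87. Of the 20 cytosolic heat shock proteins 8 were rhythmic in ALF and 17 in TRF, and the amplitude was larger in TRF in 20 of 20, against 7121 of 12476 genes tested. Hsp90aa1 had amplitudes of 0.64 and 0.97 and peaks at ZT19.6 and ZT19.4. Hspa8, the constitutive HSP70, had amplitudes of 0.41 and 0.66 and peaked at ZT17.5 in TRF. By edgeR 0 of the 20 passed the test of the rhythm difference (3 at an unadjusted p under 0.05), for which Hspa1a had the smallest adjusted p (0.39). Cirbp, an RNA-binding protein that falls with warming, had amplitudes of 0.67 in ALF and 1.21 in TRF and peaked at ZT7.3 and ZT7.1, opposite to the heat shock genes. Cirbp averaged 19.4 CPM in ALF and 8.81 CPM in TRF at ZT16, with 6.68 and, in the cortex-like library, 10.9 CPM. Rbm3, which responds likewise to cold in cultured cells, peaked at ZT17.9 and ZT17.6.

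The same feeding comparison in kidney cortex is given beside that in medulla. Over all 12476 genes tested 72% had the same sign in both regions, and 8.89% were called in cortex. Of the 366 genes called in medulla 359 had the same sign in cortex and 238 were called there in the same direction, which is 65.0% of the medulla and 21.5% of the 1109 cortex calls among these genes. None were called in the opposite direction. Acadm differed by 0.65 in medulla and 0.40 in cortex, Cyp4a14 by 1.95 and 2.25, Prlr by -1.54 and -1.39 and Aqp4 by -0.79 and -0.81. The test of the difference between the regions called 0 of 12719 genes (0%) by edgeR, with 548 at an unadjusted p under 0.05 and a lowest adjusted p of 0.144. Kcnma1 differed by 0.53 in medulla and 0.12 in cortex, and Gm6300 by 1.60 and 1.01. Without the 4 cortex-like libraries 18 genes passed, all higher in the medulla difference, among them the macrophage genes Cx3cr1 (0.77), Mpeg1 (0.68) and Mrc1 (0.67) and the matrix genes Dcn (0.70) and Lama2 (0.66). Library names carry a code that 1 medulla and 1 cortex library of the same group and time share, whose meaning the labels do not give, so the comparisons of the regions may not be independent. With that code as a block 113 genes passed, 106 higher and 7 lower, again with Cx3cr1 (0.75) and Dcn (0.61). C7, a complement component, differed by 0.81 ± 0.14 in medulla (adjusted p = 0.00031) and 0.17 in cortex. Macrophage markers in the medulla had medians of 272 CPM in ALF and 305 CPM in TRF, and their part in these differences was not tested.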

How the data were processed

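The members and gene lists were chosen with earlier results of these data known. Per the submitters' processing notes, reads were handled with CASAVA 1.8, FastQC 0.11.8, STAR 2.5.3a and HOMER 4.10 on GRCm38 (mm10). RNA was extracted by 2 kits and sequenced on 2 instruments, per the labels' protocols, and no label ties a library to either. The authors deposited expected counts, 1 column per library; 34.6% of the medulla values end in 0.5. Whether a column sums repeat runs is not stated, and libraries of 2 or more runs had a lower median total (3.32 against 5.34 M counts). Values were rounded. Of 24537 rows 4 with duplicate names were left out, and 939 columns of other tissues were not used.

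Genes passing filterByExpr were scaled by TMM and tested with edgeR 4.0.16 in R 4.3.3, adjusted by Benjamini-Hochberg over all genes tested. CPM values use TMM library sizes, set over the medulla libraries for the feeding and rhythm results. For the marker medians and sums they were set over both regions, so levels of a gene can differ slightly. Those of Xist and Ddx3y use unscaled totals. Amplitudes and peaks came from limma 3.58.1 on log2 CPM (prior count 2). DESeq2 1.42.0 served as an alternative, and the procedure was tested on simulated data. Named genes had the 12 largest changes each way at the mean level (5 in each window), with the same sign in both replicate numbers, the smallest p for the difference of rhythm or the 10 largest amplitudes, with averages of 5 CPM or more. Genes with the smallest p for the difference between the windows, up to 6 members of each list with the smallest p, the clock genes and up to 3 markers of a cell type were named with no such minimum. Idi1, Pnpla3, Havcr1, Kcnma1 and other list members entered by the list rule, and C7, Txnip, Sqle, Hspa8, Cpt1a and called list members past the sixth were chosen after their values were seen. A few genes of the lists are counted but not reported here by name.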

Additional observations from a re-analysis of the deposited data

Results flagged for a closer look

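For 3 genes the feeding difference in the hours with food differed from that in the hours without, by the edgeR test of that difference. The value was -1.30 on the log2 scale for Npas2, -0.611 for Acsl1 and -0.727 for Ypel2.

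For 5 genes the 24-h rhythm differed between the feeding groups, by a joint test of amplitude and peak time. The amplitude in TRF minus that in ALF was 0.611 for Lgals4, 0.592 for its near-identical copy Lgals6, 0.185 for Hnrnpl, 0.131 for Npas2 and -0.0508 for Acsl1. The peak moved by 4.40 h in Acsl1 and by 1.32 h in Npas2.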

How the results depend on the processing

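The named fat oxidation genes and all other named calls kept their direction in every alternative run. Acss2, Bdh1, Ces2c, Mt2, Oas1a, Pdia4, Pdia6, Pex11a and Pgam1 lost their mean-level call under at least 1 alternative beside those that leave out a replicate number. Depth limits the low genes: Havcr1, Lcn2, Idi1 and Ces1g rest on a few CPM. The 366 mean-level calls became 576 without the 4 cortex-like libraries and 960 with the proximal tubule covariate. The 59 calls without food became 168 and 245 under the same settings, and the 124 with food became 357 with the covariate and 237 without ZT0 and ZT22. The 3 window differences became 0 with DESeq2 size factors, with every low-count gene kept, with a term for repeat runs, or without the cortex-like libraries, and 1 without ZT0 and ZT22. The 5 rhythm differences became 13 without the cortex-like libraries, 45 with the covariate and 13 with a 12-h harmonic. With a minimum amplitude of 0.25 the rhythmic genes numbered 2267 in ALF and 3261 in TRF. The 0 medulla against cortex differences became 18 without the cortex-like libraries, 2 with the covariate and 113 with the library code as a block.

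Leaving out a replicate number leaves 1 library per group and time, so the spread is taken over clock times. Calls then ranged from 0 to 58 at the mean level, 0 to 0 without food, 0 to 21 with food, 0 to 0 for the window difference, 110 to 1181 for the ALF rhythm, 1452 to 2857 for the TRF rhythm and 0 to 0 for the rhythm difference.

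With the replicate number as a block the mean-level calls were 362, of which 356 were shared, and the window differences 0. At each time the difference between replicates 1 and 2 in ALF was correlated over genes with that in TRF. The correlation ran from -0.447 to 0.799 over the 12 times, above 0.1 in 7. It was highest at ZT10, where replicate 2 of both groups is cortex-like. These values cannot tell whether the numbers pair the libraries, and no label says that they do.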
